A study of Rattus norvegicus with 64 samples.

Results

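Endothelial cells line the vessels of the brain and form the blood-brain barrier, and 8 genes that mark them were followed here: Cdh5, Vwf, Esam, Tek, Kdr, Flt1, Cldn5 and Pecam1. They were chosen by name from the gene symbols of the deposited comparison tables. Of the 8 genes, 6 had a row under their symbol among 15344 symbols, and Cldn5 and Pecam1 are not analysed here. The values are read counts from RNA sequencing of rat brain, in 64 libraries from the hippocampus and the cortex of 32 rats.

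All rats carried ApoE3 or ApoE4, 2 forms of human apolipoprotein E of which ApoE4 carries the higher risk of Alzheimer disease. The doxorubicin groups, 1 per genotype, received the drug, an anthracycline used in chemotherapy, at 2 mg/kg once per week for 4 weeks from an age of 5 weeks. Brains were collected 5 to 6 weeks after dosing ended. The control rats of each genotype received phosphate-buffered saline (PBS) in its place. Crossing region, genotype and treatment gives 8 groups of 8 libraries, from 4 males and 4 females, and every rat gave both regions. The rat strain and the way the human forms were introduced are not given in the sources used here. Rat numbers ran in blocks by genotype, sex and treatment, so a batch that follows those blocks and a group difference cannot be told apart.

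In these cells Cdh5 encodes VE-cadherin, the adhesive protein of adherens junctions, and Esam encodes an adhesion molecule of tight junctions. Vwf encodes von Willebrand factor, a clotting protein that endothelial cells store and secrete, with higher levels in veins and large vessels than in capillaries. Tek encodes TIE2, the receptor of the angiopoietins, which keeps vessels quiescent. Kdr and Flt1 encode receptors of vascular endothelial growth factor (VEGF): KDR carries most of the growth signal and FLT1 binds the ligand tightly and limits it. The brain endothelium differs from that of other organs in its dense tight junctions, few vesicles and many transporters, features that Wnt signals and contact with pericytes and astrocytes maintain.

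Kdr and Flt1 answer to the same ligand, so the 250 bases before their starts are shown side by side, read on the plus strand of the rat build GRCr8 from RefSeq. The Kdr window is chr14:32571813-32572062 and the Flt1 window is chr12:12333180-12333429. Capitals mark matches, on either strand, to short motifs of factors that act at many promoters. For ETS factors these were AGGAAG as well as CCGGAA, while zinc finger factors of the GATA family were represented by AGATAA. For SOX factors the motif was ACAAAG, for the factor SP1 it was GGGCGG, for the E-box it was CACGTG and for the TATA box it was TATAAA. No motif contains another.
Kdr: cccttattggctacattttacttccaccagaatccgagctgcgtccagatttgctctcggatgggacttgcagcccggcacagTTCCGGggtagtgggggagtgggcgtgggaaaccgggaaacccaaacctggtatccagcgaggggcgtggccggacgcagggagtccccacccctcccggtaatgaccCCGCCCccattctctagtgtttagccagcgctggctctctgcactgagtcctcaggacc
Flt1: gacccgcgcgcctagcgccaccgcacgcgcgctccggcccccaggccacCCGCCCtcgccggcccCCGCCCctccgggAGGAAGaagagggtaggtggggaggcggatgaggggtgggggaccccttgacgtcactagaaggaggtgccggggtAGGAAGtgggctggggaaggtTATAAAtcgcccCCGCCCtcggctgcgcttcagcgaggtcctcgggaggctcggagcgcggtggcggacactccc
The Kdr window holds CCGGAA once at -167 and GGGCGG once at -59, both on the minus strand. Each position is that of the leftmost base of the match as printed. The Flt1 window holds AGGAAG at -172 and -96, GGGCGG on the minus strand at -201, -185 and -63, and TATAAA at -75. Of all 33469 windows of this length in the RefSeq table, 29.5% hold AGGAAG, 12.6% hold CCGGAA, 30.5% hold GGGCGG and 12.9% hold TATAAA. The GATA motif was in neither window (10.3% of all windows hold it), nor was the SOX motif (16.3%) or the E-box (5.59%). Both are rich in G and C, at 61.6% for Kdr and 73.2% for Flt1, against a median of 51.2% over all windows. A match describes the letters and is not a binding site.

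The libraries held 10836181 to 20397553 counts each, of which ERCC spike-ins took 0.932% to 2.44%. Prox1, a marker of dentate granule neurons, stood at 68.2 to 115 CPM (counts scaled to a common library total) in hippocampal libraries and 10.6 to 18.6 CPM in cortical ones. Rat Apoe came to between 3.10 and 8.86 CPM in every library. A donor row named for ApoE3 held 1204 to 2415 CPM in ApoE4 rats and 1258 to 3172 CPM in ApoE3 rats, so it does not check the genotype label. Hippocampal libraries differed in genes of neighbouring tissues, given below as summed CPM of 14 meningeal fibroblast genes and 11 choroid plexus genes. The hippocampal library of rat 10, an ApoE4 rat given doxorubicin, stood apart from the other libraries of its group in 5 of the 6 genes. Comparisons within PBS rats reuse the PBS libraries of the doxorubicin comparisons, so their values are not independent of each other.

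All 6 genes were well detected, and each passed the filter on low counts in every comparison. Levels are given as CPM after scaling by TMM over all libraries. Cdh5 averaged 14.5 ± 2.41 CPM in the hippocampus of ApoE3 rats given doxorubicin, its lowest group mean, and 26.9 ± 11.4 CPM in that of ApoE3 PBS rats, its highest (SD, n = 8 each). In bulk tissue, fewer endothelial cells in a sample and less RNA per cell cannot be told apart. Vwf and Esam had the same highest and lowest groups. Vwf averaged 53.9 ± 11.7 CPM in ApoE3 hippocampus with doxorubicin and 98.8 ± 46.0 CPM with PBS, while Esam averaged 13.1 ± 1.61 CPM with doxorubicin and 18.2 ± 3.41 CPM with PBS (SD, n = 8 each).

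The 3 receptors had their highest mean in the cortex of ApoE4 PBS rats. Tek averaged 43.9 ± 5.77 CPM there and Kdr 22.6 ± 3.56 CPM, and for both the lowest mean lay in the cortex of ApoE3 PBS rats, at 31.4 ± 3.86 and 15.7 ± 3.43 CPM (SD, n = 8 each). Flt1 averaged 96.2 ± 12.2 CPM in the cortex of ApoE4 PBS rats, and its other 7 group means spanned 77.9 to 87.6 CPM. The ratio of the highest to the lowest group mean was 1.86 for Cdh5, 1.83 for Vwf, 1.44 for Kdr, 1.40 for Tek, 1.39 for Esam and 1.24 for Flt1. With the groups ordered by mean, neighbours differed by less than the larger SD of the pair at all 7 steps for 5 of the genes. Cdh5 had 1 step beyond it, between the cortex of ApoE3 PBS rats at 18.8 ± 2.07 CPM (SD, n = 8) and the lowest group.

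**Figure D1:**
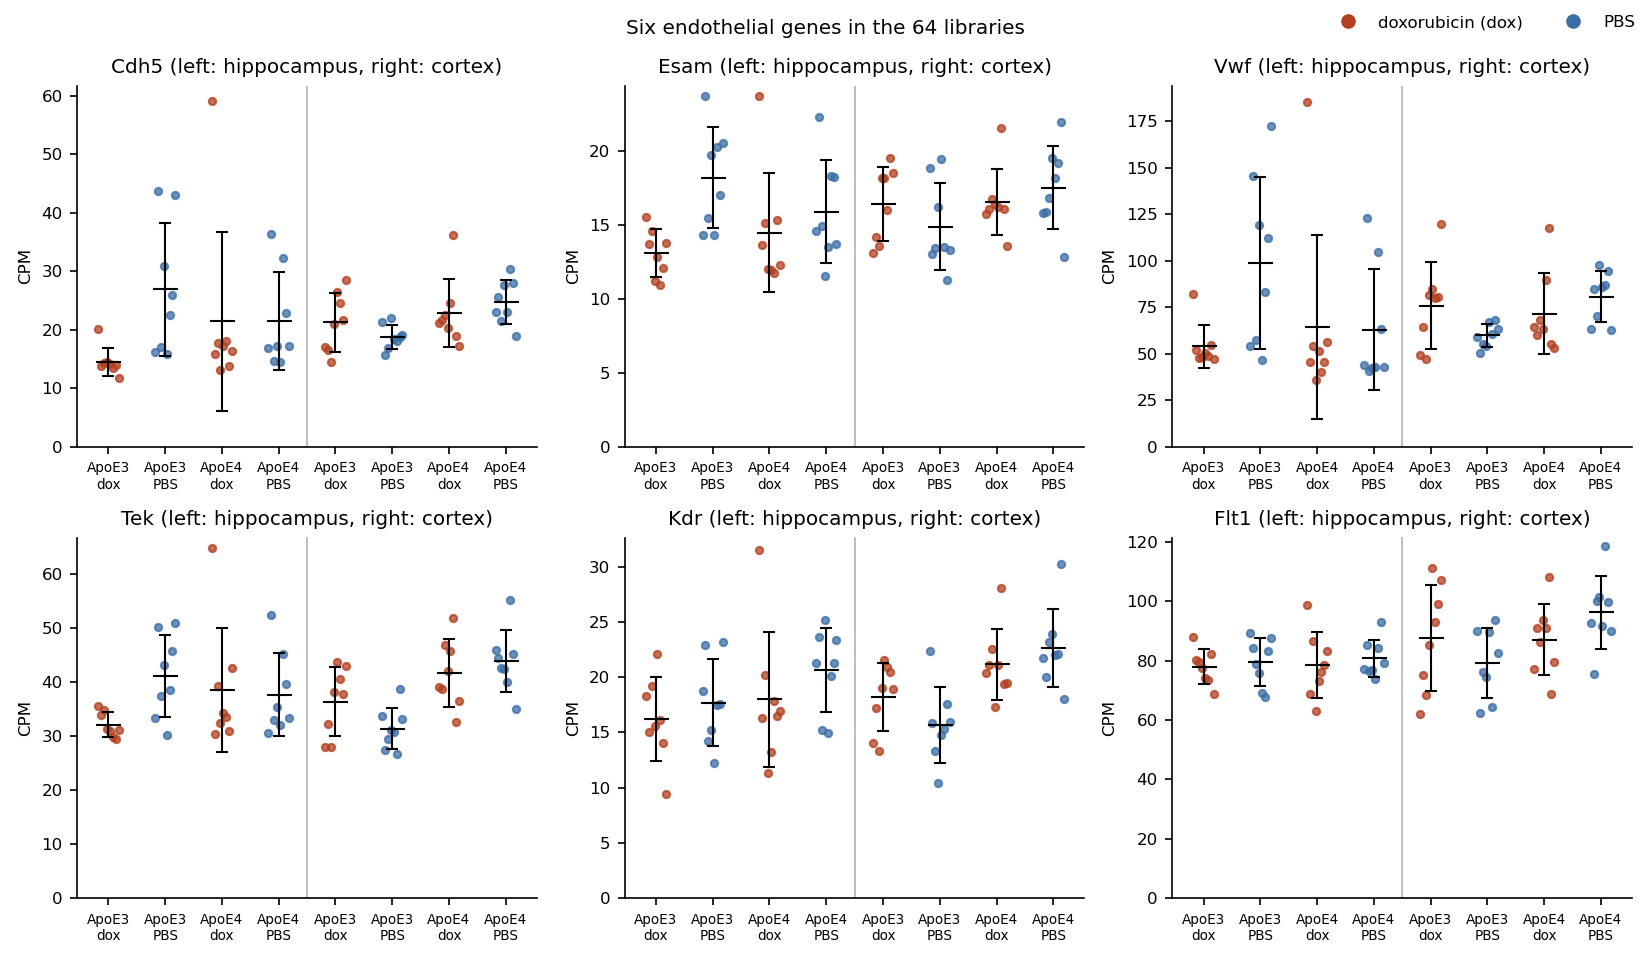
CPM of the 6 genes in each library, 1 panel per gene, with the 4 hippocampal groups left of the grey line and the 4 cortical groups right of it. Each dot is 1 rat, the bar is the mean and the whisker 1 SD (n = 8). The library of rat 10, in the ApoE4 doxorubicin group of the hippocampus, reaches 59.0 CPM in Cdh5 and 185 CPM in Vwf.

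In the hippocampus of ApoE3 rats, the adhesion genes, Vwf and Tek were lower with doxorubicin than with PBS, while the log2 changes of Kdr and Flt1 lay nearer to 0. None of the 6 passed the threshold of an adjusted p under 0.05 in the edgeR quasi-likelihood test, in a comparison where 0 of 14899 genes (0%) did. At an unadjusted p under 0.05, 4 of the 6 were lower, against 5.89% of all genes tested (10.3% in either direction). DESeq2, run on the same counts, called 3 of the 6, against 0.973% of all genes.

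Cdh5 had a lowest, median and highest level of 11.8, 14.1 and 20.1 CPM with doxorubicin, against 15.9, 24.2 and 43.7 CPM with PBS. All 8 doxorubicin libraries lay below the PBS median and 7 lay below every PBS library, while 5 PBS libraries lay above every doxorubicin library. Its log2 change was -0.89 (SE 0.21, adjusted p = 0.170). For Esam the same 3 levels were 10.9, 13.3 and 15.5 CPM with doxorubicin, against 14.3, 18.4 and 23.7 CPM with PBS. The groups overlapped in part, with 6 doxorubicin libraries below every PBS library, and the log2 change was -0.47 (SE 0.11, adjusted p = 0.170).

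Vwf ran at 47.0, 49.7 and 82.0 CPM (lowest, median, highest) with doxorubicin, against 46.7, 97.8 and 172 CPM with PBS. Here all 8 doxorubicin libraries lay below the PBS median, but none lay below every PBS library, since the PBS library of rat 56 was as low as the doxorubicin ones. The log2 change of Vwf was -0.87 (SE 0.24, adjusted p = 0.192). Tek, the angiopoietin receptor, ran at 29.4, 31.3 and 35.5 CPM with doxorubicin, against 30.2, 40.9 and 50.9 CPM with PBS. Its doxorubicin libraries lay close together and 6 PBS libraries exceeded them all. Its log2 change was -0.36 (SE 0.09, adjusted p = 0.183).

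Of the VEGF receptors, Kdr had 9.46, 15.8 and 22.1 CPM with doxorubicin, against 12.2, 17.5 and 23.2 CPM with PBS, and Flt1 had 68.9, 78.4 and 87.8 CPM with doxorubicin, against 67.7, 81.1 and 89.3 CPM with PBS. Both pairs of groups overlapped over most of their range. The log2 changes were -0.12 (SE 0.15, adjusted p = 0.837) for Kdr and -0.03 (SE 0.06, adjusted p = 0.910) for Flt1.

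In the authors' deposited table, 3 of the 6 passed an adjusted p of 0.05, against 0.991% of its 15035 genes with an adjusted p. That table gives an adjusted p of 0.0208 for Cdh5, 0.0110 for Esam and 0.0350 for Tek, with 0.0642 for Vwf. DESeq2 as run here gave adjusted p-values of 0.0299 for Cdh5, 0.0149 for Esam and 0.0364 for Tek. The log2 change of Cdh5 was -0.90 by DESeq2 and -0.89 by edgeR.

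Genes of the meninges and of mural cells also had lower values in the same comparison, and their part in the result was not tested. The 14 meningeal fibroblast genes summed to 255, 273 and 706 CPM (lowest, median, highest) with doxorubicin, against 282, 630.1 and 1345 CPM with PBS, and all 14 had a negative log2 change with a median of -1.17. Col6a2 and Col6a1, collagen chains with the smallest p of that list, were at -0.96 and -1.17. The 15 pericyte and smooth muscle genes summed to 276, 292 and 398 CPM with doxorubicin, against 257, 455 and 699 CPM with PBS, and 13 of the 14 tested had a negative log2 change with a median of -0.58. The contractile genes Acta2 and Tagln were at -1.66 and -1.44, and none of either list passed. No gene of either list was at 0 in all libraries of a group. In the PBS group the 4 libraries highest in Cdh5, in Vwf and in Tek were the 4 highest in the meningeal sum, those of rats 41, 45, 59 and 61. For Esam, Kdr and Flt1, 3 of the 4 were shared.

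With the meningeal list's mean log2 CPM per library as a covariate, an alternative chosen after seeing the data, the log2 change of Cdh5 was -0.16 (adjusted p = 0.931) and that of Vwf was 0.02 (adjusted p = 0.998). Esam was at -0.19, Tek at -0.07, Kdr at 0.22 and Flt1 at 0.04 in that fit, which called none of the 6 and 0 of 14899 genes (0%). The meningeal genes were themselves lower with doxorubicin. After group means were subtracted, their mean had r = 0.536 (Flt1) to 0.944 (Cdh5) with the 6 genes in hippocampal libraries. The fit therefore cannot separate the meningeal genes from the endothelial ones. The choroid plexus genes summed to 8308 and 6911 CPM in 2 doxorubicin libraries, those of rats 51 and 65, against a group median of 132 CPM. All 8 choroid plexus genes tested had a positive log2 change and none passed, with a median of 1.83 and with Folr1 and Clic6, of smallest p, at 1.80 and 2.12. In those 2 libraries the meningeal sum was 645 and 706 CPM, while Cdh5 stood at 14.3 and 14.1 CPM.

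**Figure D2:**
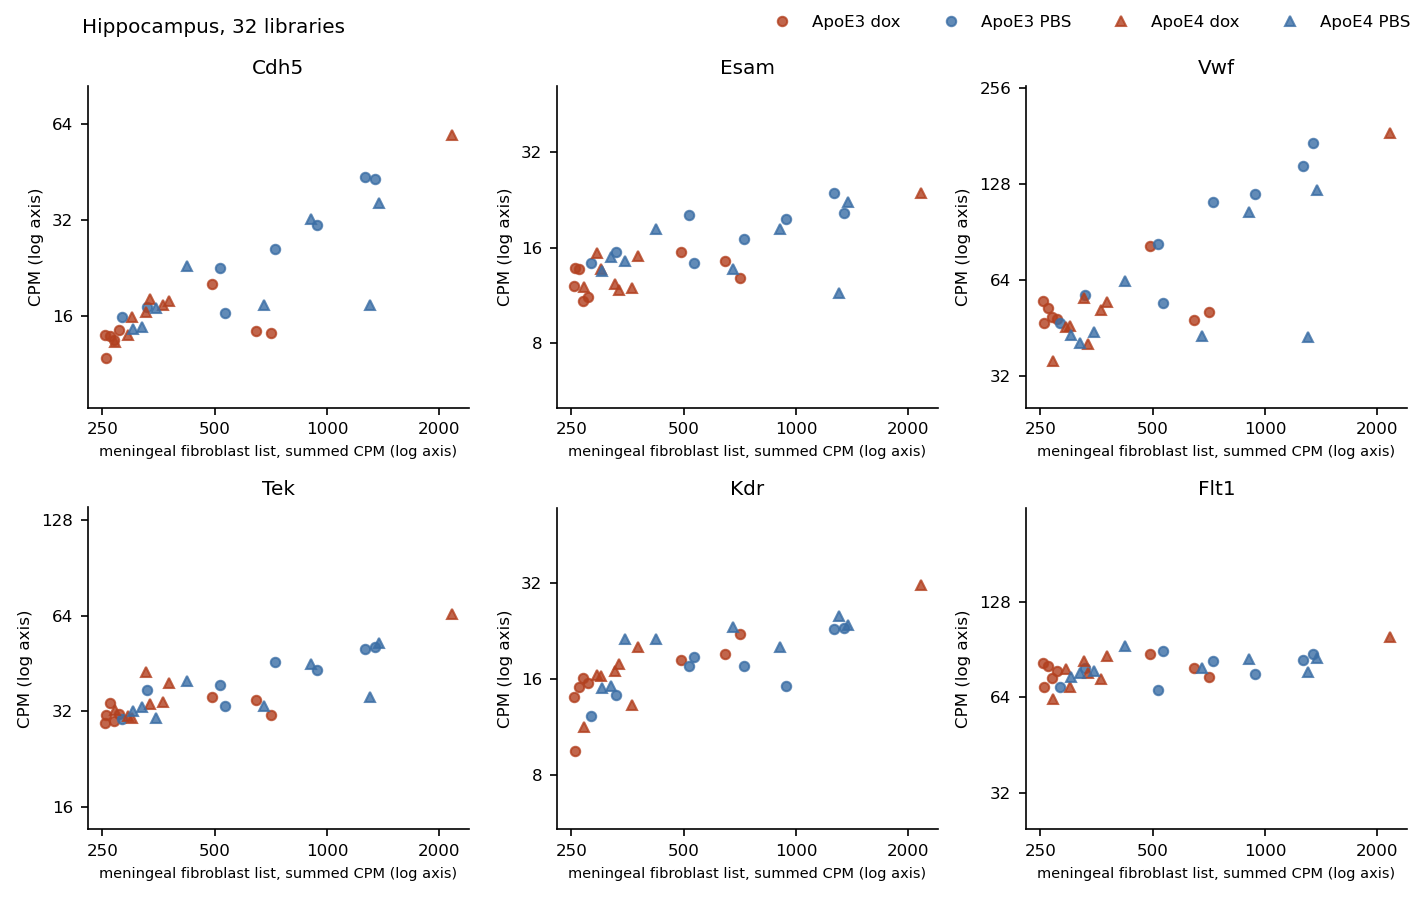
CPM of each gene (log axis) against the summed CPM of 14 meningeal fibroblast genes (log axis) in the 32 hippocampal libraries, red for doxorubicin, blue for PBS, circles for ApoE3 and triangles for ApoE4. Cdh5, Vwf and Tek climb with the meningeal sum in most libraries, up to that of rat 10 at 2158 CPM, and Flt1 stays between 63.1 and 98.8 CPM. Exceptions include rats 7 and 26, PBS ApoE4 rats at 1304 and 678.5 CPM, with Cdh5 at 17.3 and 17.2 CPM. Rats 51 and 65, doxorubicin ApoE3 rats at 645 and 706 CPM with Cdh5 at 14.3 and 14.1 CPM, are others. Choroid plexus genes summed to 17450, 7703, 8308 and 6911 CPM in these libraries, in that order.

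In the hippocampus of ApoE4 rats no gene of the 6 passed, nor did any other gene in edgeR (0 of 14873, 0%, with 7.38% at an unadjusted p under 0.05 and 0.00672% by DESeq2). The log2 changes ran from -0.21 for Kdr to 0.02 for Tek, with adjusted p-values of 0.782 to 0.996. Cdh5 had a lowest, median and highest level of 13.2, 16.9 and 59.0 CPM with doxorubicin, against 14.5, 17.3 and 36.3 CPM with PBS. Vwf had 35.6, 48.6 and 185 CPM with doxorubicin, against 40.5, 43.5 and 123 CPM with PBS. The top of the doxorubicin range was in both cases the library of rat 10, and the next highest values were 18.1 CPM for Cdh5 and 56.1 CPM for Vwf.

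That library also held 2158 CPM of meningeal genes, against a group median of 331 CPM, and 3075 CPM of choroid plexus genes. In the cortex of the same rat Cdh5 was at 21.2 CPM and Vwf at 64.6 CPM, inside the range of its group. Without the hippocampal library of rat 10 the log2 change was -0.42 for Cdh5, -0.42 for Vwf and -0.12 for Tek. In the PBS group, the libraries of rats 3 and 22 were highest in Cdh5, at 36.3 and 32.2 CPM, and in Vwf, at 123 and 105 CPM.

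In the cortex the 6 genes lay on opposite sides of PBS in the 2 genotypes, and again none passed. In ApoE3 rats all 6 log2 changes were positive, with a median of 0.18 against -0.0004 over all genes tested. edgeR called 0 of 14775 genes there (0%), with 9.25% at an unadjusted p under 0.05 and 0.521% called by DESeq2. Vwf had 47.1, 80.3 and 119.7 CPM (lowest, median, highest) with doxorubicin, against 50.6, 59.7 and 68.4 CPM with PBS. Of the doxorubicin libraries, 5 lay above every PBS library and 2 lay below them all. Its log2 change was 0.32 (SE 0.10, adjusted p = 0.334), and Tek had the next smallest p, with a log2 change of 0.20 (SE 0.08, adjusted p = 0.458).

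Vwf in ApoE4 cortex had 53.3, 63.9 and 117 CPM with doxorubicin, against 62.7, 85.2 and 97.5 CPM with PBS. Its doxorubicin libraries lay below the PBS median in 6 of 8 cases, and the library of rat 31 stood above all PBS libraries. All 6 log2 changes were negative, from -0.19 for Vwf to -0.08 for Tek, with adjusted p-values of 0.614 to 0.843. Here edgeR called 0 of 14838 genes (0%), with 8.82% at an unadjusted p under 0.05 and 0.249% called by DESeq2. The median of the 6 was -0.11, against -0.0004 over all genes. The authors' deposited tables called none of the 6 in either cortical comparison, nor any in ApoE4 hippocampus. Of genes with an adjusted p they called 0.0569% in ApoE3 cortex, 0.409% in ApoE4 cortex and 0.00664% in ApoE4 hippocampus. In ApoE4 cortex only 6843 of their 14968 rows held an adjusted p, so a gene not called there may not have had one. DESeq2 as run here gave no adjusted p to Cdh5, Esam and Kdr in that comparison.

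The meningeal sums differed in the same directions in the cortex, at 270.5, 377 and 662 CPM (lowest, median, highest) with doxorubicin against 275, 332 and 409.7 CPM with PBS in ApoE3. In ApoE4 they were 259, 394 and 826 CPM with doxorubicin, against 327, 608 and 694 CPM with PBS. Their part in these values was not tested.

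**Figure D3:**
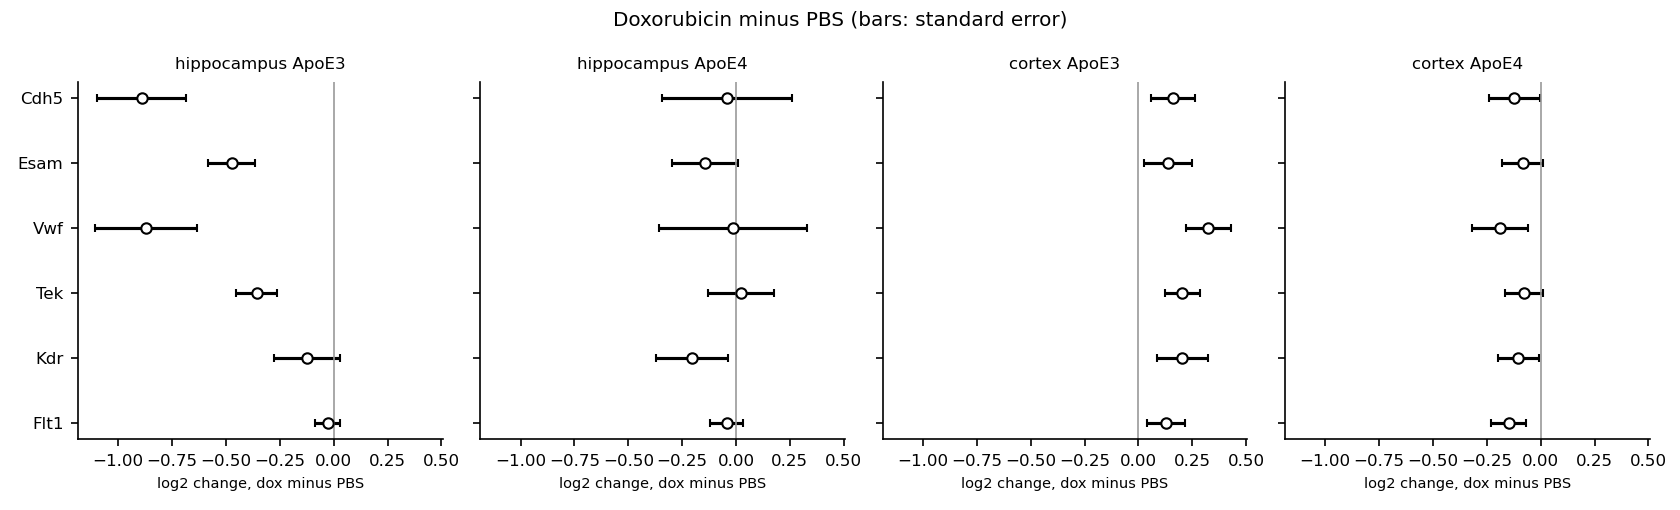
Log2 change, doxorubicin minus PBS, of the 6 genes in the 4 comparisons of region and genotype, with the standard error as a bar (n = 8 rats per group). Open circles mark an adjusted p of at least 0.05, which holds for all 24 values. The largest changes are those of Cdh5 and Vwf in ApoE3 hippocampus, at -0.89 and -0.87.

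The region difference of the doxorubicin effect was tested directly in the ApoE3 rats, as the hippocampal effect minus the cortical effect. By edgeR 0 of 15428 genes passed (0%), with 8.00% at an unadjusted p under 0.05. Cdh5 had a difference of -1.06 (SE 0.25, adjusted p = 0.0675) and Vwf of -1.20 (SE 0.28, adjusted p = 0.0675) on the log2 scale. Tek stood at -0.56 (SE 0.14, adjusted p = 0.0843) and Esam at -0.61 (SE 0.17, adjusted p = 0.103). For Kdr and Flt1 the differences were -0.33 and -0.17, with adjusted p-values of 0.748 and 0.828. DESeq2 called 4 of the 6 in this comparison, against 0.817% of all genes, with adjusted p-values of 0.0216 for Cdh5, 0.0225 for Tek, 0.0311 for Vwf and 0.0414 for Esam. Without the filter on low counts edgeR called Cdh5 and Vwf, each at an adjusted p of 0.0457, against 0.158% of 25385 genes.

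Markers of meningeal, mural and perivascular cells also had negative differences in this contrast. All 14 meningeal genes had a negative difference, with a median of -1.34, and Col6a2 and Col1a1, of smallest p, were at -1.11 and -2.61. All 15 pericyte and smooth muscle genes were negative too, with a median of -1.15 and with Tagln and Myh11 at -1.67 and -1.63. Of 7 leukocyte and perivascular macrophage genes 6 were negative, with a median of -0.57. There the macrophage genes Mrc1 and Cd163 stood at -1.56 (SE 0.40, adjusted p = 0.0894) and -1.40 (SE 0.39, adjusted p = 0.110). The T cell gene Cd3e had the smallest p of the list (adjusted p = 0.0601), with few or no reads in cortical libraries, so that its difference is not given. Ptprc, of the same list, was at -0.26, and whether the Cd3e reads came from T cells was not tested. The 11 choroid plexus genes were all positive, with a median of 1.41. No gene of these lists passed, and the median of the 6 endothelial genes was -0.59. With the meningeal mean as a covariate, chosen after seeing the data, Cdh5 was at -0.15, Vwf at -0.10, Tek at -0.18 and Esam at -0.23, and that fit called none of the 6 and 0 of 15428 genes (0%). The part of these lists in the endothelial values was not tested.

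In the ApoE4 rats the same differences ran from -0.09 to 0.21 and none passed, with every adjusted p at 0.9998 (0 of 15432 genes, 0%, with 3.59% at an unadjusted p under 0.05 and 0 by DESeq2). Without the hippocampal library of rat 10 they were -0.29 for Cdh5, -0.23 for Vwf and -0.032 for Tek. The genotype difference of the effect, ApoE4 minus ApoE3, was 0.87 (SE 0.38, adjusted p = 0.577) for Cdh5 and 0.89 (SE 0.44, adjusted p = 0.610) for Vwf in the hippocampus. None of the 6 passed there (0 of 15416 genes, 0%, with 8.18% at an unadjusted p under 0.05 and 0.0130% by DESeq2). Without the hippocampal library of rat 10 the difference was 0.475 for Cdh5 and 0.45 for Vwf. In the cortex all 6 genotype differences were negative, from -0.52 for Vwf to -0.22 for Esam, with adjusted p-values of 0.879 to 0.890 (0 of 15315 genes, 0%, with 5.45% at an unadjusted p under 0.05 and 0 by DESeq2).

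The cortical effect in ApoE3 rats was also set out by sex, in a comparison added after the data were seen. In females Cdh5 had a lowest, median and highest level of 21.7, 25.4 and 28.4 CPM with doxorubicin, against 18.2, 18.6 and 19.0 CPM with PBS (n = 4 each). Males had 14.6, 16.8 and 20.9 CPM with doxorubicin, against 15.7, 19.1 and 21.9 CPM with PBS. The female groups did not overlap and the male groups did. Female groups of Vwf (80.0 to 119.7 CPM with doxorubicin, 60.5 to 68.4 CPM with PBS) did not overlap either. Nor did those of Kdr (18.9 to 21.6 against 14.75 to 17.6 CPM). The share of all genes separated in this way was not counted, so the separation is not read as particular to these genes. For Cdh5 the female effect minus the male effect was 0.58 (SE 0.17, adjusted p = 0.0609) on the log2 scale, and DESeq2 gave an adjusted p of 0.0261.

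Flt1 in females had 93.0, 103 and 111 CPM with doxorubicin, against 64.5, 86.2 and 93.7 CPM with PBS, and in males 62.2, 71.7 and 85.1 CPM with doxorubicin, against 62.4, 75.4 and 90.0 CPM with PBS (n = 4 each). Its female groups overlapped at 1 library, and the difference between the sexes was 0.38 (SE 0.16, adjusted p = 0.181). All 6 genes had a positive difference, from 0.30 for Tek upwards, and edgeR called none of them, against 2.57% of all genes (19.5% at an unadjusted p under 0.05). DESeq2 called Cdh5 alone of the 6, against 5.18% of all genes. In the other 3 comparisons of this kind none of the 6 passed, with adjusted p-values of at least 0.939. The share of all genes called there by edgeR was 0% in ApoE3 hippocampus (4.45% at an unadjusted p under 0.05, 0% by DESeq2). It was 0% in ApoE4 hippocampus (3.49% unadjusted, 0.00672% by DESeq2) and 0.00674% in ApoE4 cortex (5.84% unadjusted, 0.142% by DESeq2).

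Markers of other cells also had mostly positive differences between the sexes in ApoE3 cortex. The 7 microglial genes were all positive, with a median of 0.32 and with Tmem119 and Csf1r, of smallest p, at 1.07 (SE 0.30, adjusted p = 0.0581) and 0.32 (SE 0.15, adjusted p = 0.216). All 6 leukocyte and macrophage genes tested were positive, with a median of 0.48 and with Mrc1 and Cd163 at 1.10 (SE 0.34, adjusted p = 0.0756) and 0.77 (SE 0.40, adjusted p = 0.292). None of either list passed. Of 14 meningeal genes 12 were positive and none passed, with a median of 0.42 and with Slc22a6 and Col6a2 at 1.02 and 0.41. Of 14 pericyte and smooth muscle genes tested 13 were positive and 2 passed, Notch3 at 0.62 (SE 0.16, adjusted p = 0.0398) and Pdgfrb at 0.49 (SE 0.13, adjusted p = 0.0401). Over all genes, 2.57% passed in this comparison. The median of the 6 endothelial genes was 0.37. With the meningeal mean as a covariate Cdh5 was at 0.39 (adjusted p = 0.253) and Flt1 at 0.33, in a fit that called none of the 6 and 0.616% of all genes. The part of these lists in the endothelial values was not tested.

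**Figure D4:**
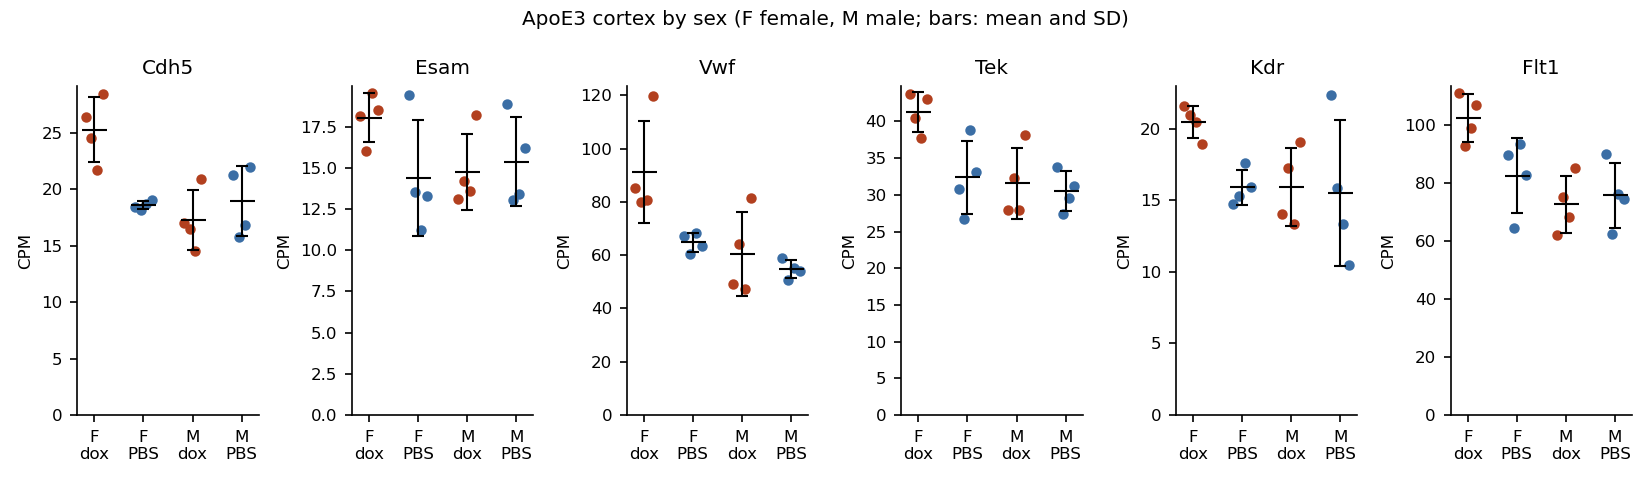
CPM of the 6 genes in the cortex of ApoE3 rats, by sex and treatment; each dot is 1 rat (red doxorubicin, blue PBS), the bar is the mean and the whisker 1 SD (n = 4). In Cdh5 the females given doxorubicin lie at 21.7 CPM or more, above every other library but 1 male PBS library at 21.9 CPM.

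In the cortex of PBS rats, Tek, Kdr, Vwf, Cdh5 and Flt1 were higher in ApoE4 than in ApoE3. All 6 log2 differences were positive, with a median of 0.41 against -0.0072 over all genes, and 5 of the 6 passed as higher. In this comparison 18.2% of all genes tested passed, 9.63% as higher in ApoE4 and 8.57% as lower. The share was 31.5% at an unadjusted p under 0.05 and 19.3% by DESeq2.

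Tek had 35.0, 43.5 and 55.2 CPM (lowest, median, highest) in ApoE4 cortex, against 26.8, 31.0 and 38.8 CPM in ApoE3 cortex. Of the ApoE4 libraries 7 lay above every ApoE3 library, and the log2 difference was 0.48 (SE 0.10, adjusted p = 0.000504). Kdr had 18.0, 22.0 and 30.2 CPM in ApoE4, against 10.4, 15.6 and 22.4 CPM in ApoE3. Here 7 ApoE3 libraries lay below every ApoE4 library and the other lay within the ApoE4 range, and the difference was 0.52 (SE 0.11, adjusted p = 0.00125). Flt1 had 75.6, 96.1 and 119 CPM in ApoE4, against 62.4, 79.4 and 93.7 CPM in ApoE3, groups that overlapped more, with a difference of 0.27 (SE 0.10, adjusted p = 0.0427).

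Cdh5 had 18.9, 24.3 and 30.3 CPM in ApoE4 cortex, against 15.7, 18.6 and 21.9 CPM in ApoE3 cortex, and Vwf had 62.7, 85.2 and 97.5 CPM in ApoE4, against 50.6, 59.7 and 68.4 CPM in ApoE3. For both, all 8 ApoE4 libraries lay above the ApoE3 median and 6 lay above every ApoE3 library. The log2 differences were 0.39 (SE 0.12, adjusted p = 0.0219) for Cdh5 and 0.44 (SE 0.13, adjusted p = 0.0187) for Vwf. Esam, the other adhesion gene, did not pass, at 0.22 (SE 0.11, adjusted p = 0.162).

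Meningeal markers differed in the same direction, at 327, 608 and 694 CPM summed (lowest, median, highest) in ApoE4 cortex, against 275, 332 and 409.7 CPM in ApoE3 cortex. Of the 14 genes 9 passed as higher, among them Pdgfra, a receptor of fibroblasts and oligodendrocyte precursors, at 0.50 (SE 0.07, adjusted p = 6.80e-06) and Lum, a matrix proteoglycan, at 1.05 (SE 0.21, adjusted p = 0.000545). All 15 pericyte and smooth muscle genes had a positive difference and 4 passed, including Rgs5 at 0.46 (SE 0.11, adjusted p = 0.00263) and Notch3 at 0.51 (SE 0.13, adjusted p = 0.00444). Over all genes, 9.63% passed as higher. With the meningeal mean as a covariate, Tek alone of the 6 passed, at 0.27 (adjusted p = 0.0469), where 11.6% of all genes did. Kdr stood at 0.33 (adjusted p = 0.0619), while Cdh5 and Vwf were at 0.03 and 0.01. The part of the meningeal and mural genes in the endothelial values was not tested. Without the cortical library of rat 7, an ApoE4 PBS rat, 3 of the 6 passed. Vwf then had an adjusted p of 0.0519 and Flt1 of 0.0767, and the share of all genes in that fit was not counted. Flt1 missed the threshold in 10 of the 16 fits that left out 1 library (ApoE4 rats 1, 4, 7, 22 and 24, and ApoE3 rats 41, 43, 45, 58 and 61), with an adjusted p of at most 0.0953. It also missed it with total-count scaling (adjusted p = 0.0536) and without the sex term (adjusted p = 0.0644).

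The hippocampus of the same rats gave no such difference that passed. Vwf, for example, had 40.5, 43.5 and 123 CPM in ApoE4 hippocampus, against 46.7, 97.8 and 172 CPM in ApoE3 hippocampus, with 5 ApoE4 libraries below every ApoE3 library. The log2 difference was -0.66 (SE 0.31, adjusted p = 0.291). Cdh5, Esam and Tek were at -0.32, -0.19 and -0.13, Kdr and Flt1 at 0.22 and 0.02, and 0 of the 6 passed where 3.81% of all genes did. At an unadjusted p under 0.05, 1 of the 6 passed, Vwf, against 16.0% of all genes, and DESeq2 called 4.53% of all genes and none of the 6.

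The difference between the regions in this genotype contrast, hippocampus minus cortex, was added after the data were seen. It was -0.60 (SE 0.15, adjusted p = 0.107) for Tek, -1.07 (SE 0.33, adjusted p = 0.187) for Vwf and -0.71 (SE 0.28, adjusted p = 0.310) for Cdh5. edgeR called none of the 6, against 0.130% of all genes (12.5% at an unadjusted p under 0.05). Both regions came from the same rats, and with the rat as a block Tek passed at -0.60 (adjusted p = 0.0491), against 0.149% of all genes in that fit. Tek alone of the 6 also passed by DESeq2 (adjusted p = 0.0302), against 0.467% of all genes. All 14 meningeal genes had a negative difference here, with a median of -1.02, as had 14 of 15 pericyte and smooth muscle genes, with a median of -0.59. Of 7 leukocyte and macrophage genes 6 were negative, with a median of -0.34, against -0.51 for the 6 endothelial genes. Cd3e, few of whose reads came from the cortex, passed as lower (adjusted p = 0.0263), while Ptprc of the same list was at -0.21. Whether the Cd3e reads came from T cells was not tested. Mrc1 and Cd163 stood at -1.65 (SE 0.39, adjusted p = 0.0879) and -1.75 (SE 0.46, adjusted p = 0.137). All 11 choroid plexus genes were positive, with a median of 1.72. With the meningeal mean as a covariate Tek was at -0.34 (adjusted p = 0.248), Vwf at -0.38 and Cdh5 at -0.13, and none of the 6 passed, against 0.0649% of all genes. The part of these lists in the endothelial values was not tested.

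Within the ApoE3 PBS rats, 4 of the 6 genes were higher in the hippocampus than in the cortex, where 51.0% of all genes passed and 27.5% passed as higher (56.4% in either direction at an unadjusted p under 0.05, 50.8% by DESeq2). The log2 differences were 0.73 (SE 0.20, adjusted p = 0.00264) for Vwf, 0.52 (SE 0.17, adjusted p = 0.0131) for Cdh5, 0.39 (SE 0.10, adjusted p = 0.00118) for Tek and 0.29 (SE 0.12, adjusted p = 0.0377) for Esam. Vwf had 46.7, 97.8 and 172 CPM (lowest, median, highest) in the hippocampus, against 50.6, 59.7 and 68.4 CPM in the cortex. The hippocampal libraries were spread widely around the narrow cortical range, with 5 above it and 1 below. Kdr and Flt1 did not pass, at 0.17 and 0.01. With the rat as a block Esam no longer passed (adjusted p = 0.0776), in a fit that called 51.1% of all genes. It also missed the threshold in 9 of the 16 fits that left out 1 library (the hippocampus of rats 41, 45, 58 and 61 and the cortex of rats 41, 43, 58, 59 and 61). Without the hippocampal library of rat 41, or that of rat 61, 2 of the 6 passed, since Cdh5 had an adjusted p of 0.0661 or 0.0547. The share of all genes passing in those fits was not counted. The meningeal sums of those 2 libraries, 1262 and 1345 CPM, were the highest of their group, and 13 of the 14 meningeal genes passed as higher in the hippocampus.

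In the ApoE4 PBS rats all 6 differences between hippocampus and cortex were negative, from -0.38 for Vwf to -0.15 for Kdr. Flt1 was lower, at -0.27 (SE 0.08, adjusted p = 0.00758), and was the single gene of the 6 to pass where 50.4% of all genes did and 25.7% passed as lower (55.5% in either direction at an unadjusted p under 0.05, 50.5% by DESeq2). It had 73.9, 78.3 and 92.9 CPM in the hippocampus, against 75.6, 96.1 and 119 CPM in the cortex. All 8 hippocampal libraries lay below the cortical median, and 4 cortical libraries lay above every hippocampal one.

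**Figure D5:**
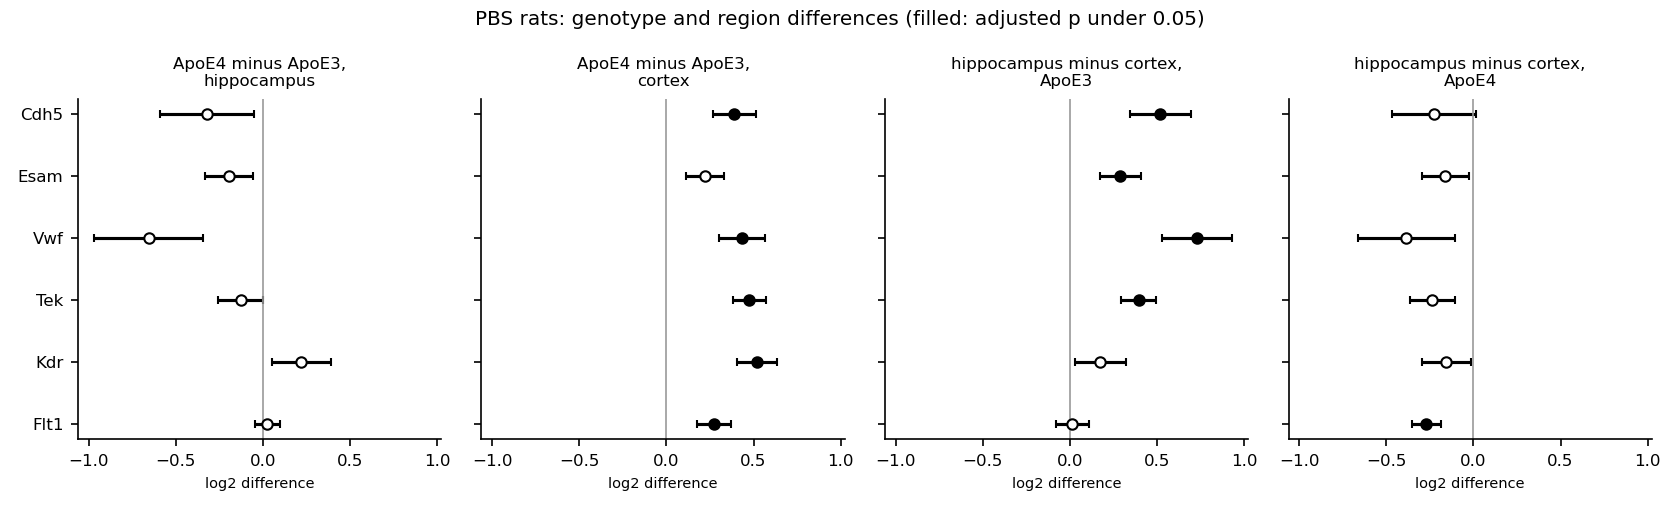
Log2 differences of the 6 genes in PBS rats, ApoE4 minus ApoE3 in each region (left panels) and hippocampus minus cortex in each genotype (right panels), with the standard error as a bar (n = 8 libraries per group). Filled circles passed an adjusted p under 0.05: 5 in ApoE4 against ApoE3 cortex, 4 in hippocampus against cortex of ApoE3 rats, and Flt1 in ApoE4 rats, at -0.27.

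Other endothelial genes were read from a list of 24, of which 22 had a row. In ApoE3 hippocampus all 22 had a negative log2 change with doxorubicin and none passed, with a median of -0.30 against 0.0015 over all genes. At an unadjusted p under 0.05, 13 of them were lower, against 5.89% of all genes tested. Sox17, an endothelial transcription factor, was at -0.43 (SE 0.11, adjusted p = 0.183), and Tie1, an orphan receptor that acts with TIE2, at -0.41 (SE 0.11, adjusted p = 0.194). Between the genotypes in PBS cortex all 22 had a positive ApoE4 minus ApoE3 difference and 7 passed, where 9.63% of all genes passed as higher, with a median of 0.28. Cd93, an endothelial surface lectin, was higher, at 0.98 (SE 0.13, adjusted p = 7.96e-07), and Podxl, a sialomucin of the luminal surface, was higher too, at 0.36 (SE 0.10, adjusted p = 0.00755). Tie1 did not pass, at 0.13.

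The VEGF and angiopoietin list held 16 genes, all with a row. Angpt2, the TIE2 antagonist released by activated endothelium, had the smallest p of the list in ApoE3 hippocampus with doxorubicin, at -1.99 (SE 0.42, adjusted p = 0.170), and Nrp1, a VEGF co-receptor, was at 0.10 (SE 0.04, adjusted p = 0.460). Vegfa, the main KDR ligand, was at -0.04, Angpt1, the TIE2 agonist, at -0.10 and Ptprb, a phosphatase that acts on TIE2, at -0.26, none of which passed. For the genotypes in PBS cortex, 6 of the 16 passed as higher in ApoE4 (9.63% of all genes) and 0 as lower. They included Apln, the ligand of the apelin receptor, at 0.53 (SE 0.07, adjusted p = 2.29e-06), Plxnd1, a semaphorin receptor of vessels, at 0.31 (SE 0.05, adjusted p = 2.29e-05), Ptprb at 0.67 (SE 0.12, adjusted p = 0.000106) and Angpt2 at 0.90 (SE 0.25, adjusted p = 0.0103). Angpt1 at 0.40 and Vegfa at -0.01 did not pass.

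Junction genes, 17 measured of 18, had a median of 0.03 with doxorubicin in ApoE3 hippocampus and none passed. F11r, which encodes the adhesion molecule JAM-A, was at -0.44 (SE 0.21, adjusted p = 0.493), Jup, the plakoglobin of junctions, at -0.13 (SE 0.06, adjusted p = 0.494), and the tight junction genes Ocln and Tjp1 at -0.03 and 0.03. PBS cortex had 4 of the 17 that passed as higher in ApoE4 and 1 as lower, where 9.63% and 8.57% of all genes did. Ctnnd1, the p120 catenin that holds VE-cadherin at the membrane, was higher at 0.24 (SE 0.04, adjusted p = 4.65e-06), as were Cgnl1, a tight junction scaffold, at 0.53 (SE 0.10, adjusted p = 0.000144), and Tjp1 at 0.22 (SE 0.05, adjusted p = 0.000945), while Ocln did not pass, at 0.20. Several of these genes are also expressed outside the endothelium.

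Barrier transporters, 17 measured of 18, had a median of -0.06 with doxorubicin in ApoE3 hippocampus, and none passed. Slc3a2, the heavy chain of amino acid exchangers, was at -0.12 (SE 0.04, adjusted p = 0.250), and Slc38a5, a glutamine carrier, at -0.53 (SE 0.23, adjusted p = 0.420). Slc2a1, the glucose transporter of the barrier, and Mfsd2a, which carries lipids and restrains vesicle traffic, were at -0.13 and -0.01. Of the 17, 2 passed in PBS cortex as higher in ApoE4, a share near the 9.63% of all genes. They were Insr, the insulin receptor, at 0.24 (SE 0.04, adjusted p = 7.10e-06) and Slc6a6, the taurine transporter, at 0.19 (SE 0.05, adjusted p = 0.0123). Slc2a1 at 0.11 and Mfsd2a at -0.03 did not pass.

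The Wnt barrier list, 13 measured of 15, had a median of -0.15 with doxorubicin in ApoE3 hippocampus with none past the threshold, and its smallest p-values belonged to Apcdd1, a Wnt inhibitor and target, at -0.33 (SE 0.09, adjusted p = 0.194), and to Foxc1, a forkhead factor, at -1.13 (SE 0.34, adjusted p = 0.222). The genotype comparison in PBS cortex had 2 of the 13 that passed as higher in ApoE4, where 9.63% of all genes did. They were Apcdd1 at 0.50 (SE 0.11, adjusted p = 0.00106) and Adgra2, the co-receptor for Wnt7 signals, at 0.34 (SE 0.11, adjusted p = 0.0248). Among genes of endothelial activation and vesicles, 9 were tested in ApoE3 hippocampus and 0 passed. Cavin1, a caveolar coat protein, was at -0.88 (SE 0.17, adjusted p = 0.170), Procr, the protein C receptor, at -1.27 (SE 0.32, adjusted p = 0.181), and Plvap, a diaphragm protein of leaky vessels, at 0.24. Of 10 tested in PBS cortex, 3 passed as higher in ApoE4 (9.63% of all genes), with Cav1, the main caveolar protein, at 0.35 (SE 0.08, adjusted p = 0.00122) and Cavin1 at 0.53 (SE 0.12, adjusted p = 0.00168), and Plvap at 0.03.

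Markers of other brain cells were read in the same comparisons. Among 7 leukocyte and perivascular macrophage genes, doxorubicin in ApoE3 hippocampus gave a median log2 change of -0.35 with none past the threshold, and Cd163 and Mrc1, macrophage scavenger receptors, were at -1.08 and -0.99. In that comparison none of the microglial, astrocytic or neuronal genes passed, with medians of -0.08, 0.03 and 0.04. The smallest p-values were those of Csf1r and P2ry12 for microglia, at -0.09 and -0.13, Gjb6 and Kcnj10 for astrocytes, at -0.52 and 0.26, and Nefl and Gad2 for neurons, at 0.10 and 0.09. The ApoE4 minus ApoE3 medians in PBS cortex were 0.39 for the leukocyte list (3 of 6 tested passed as higher, among them Mrc1 at 1.45 and Lyve1 at 0.64) and -0.13 for 7 microglial genes. Of the microglial genes 3 passed as lower and 1 as higher, with P2ry12 at -0.59. Over all genes, 9.63% passed as higher and 8.57% as lower in this genotype comparison. Of 10 astrocyte genes 4 passed as higher and 1 as lower, with Slc1a2 at 0.61 and Kcnj10 at 0.38, and of 10 neuronal genes 4 passed as lower and 1 as higher, with Tubb3 at -0.25 and Stmn2 at -0.18. The part of these cell types in the endothelial values was not tested.

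The 6 genes varied together between libraries to different degrees. After the 8 group means were subtracted from log2 CPM, the 15 pairs among them had Pearson's r of 0.517 to 0.947 over the 64 libraries, given as a description since the libraries of a rat share an animal and all genes of a library share its depth and tissue. The closest pair was Cdh5 and Vwf, at 0.947, and Tek was next with Cdh5, at 0.876. Kdr and Flt1, the 2 VEGF receptors, had r = 0.583 with each other. The coefficient of variation within a group reached 76.8% for Vwf and 71.3% for Cdh5, both in ApoE4 hippocampus with doxorubicin, where the other 7 libraries without that of rat 10 gave 16.0% and 11.9%. It was at most 20.5% for Flt1.

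Among 12164 other genes, the 3 closest to each by the same measure over 64 libraries differed in kind. Those of Cdh5 were Slc6a20 (r = 0.947), Aebp1 (r = 0.936), Adgra2 (r = 0.933), of which Slc6a20, an imino acid transporter, is on the meningeal list and Adgra2 on the Wnt list. Those of Vwf were Vtn (r = 0.944), Acta2 (r = 0.942), Adgra2 (r = 0.942), with Vtn a pericyte marker and Acta2 a smooth muscle actin. Esam was closest to Nos3 (r = 0.79), Acta2 (r = 0.785), Tagln (r = 0.778), where Nos3 is the nitric oxide synthase of endothelium and Tagln a smooth muscle gene. Tek was closest to Adgra2 (r = 0.874), Olfml2a (r = 0.871), Cavin1 (r = 0.856). For Kdr they were Pttg1ip (r = 0.775), Slc22a8 (r = 0.771), Cd93 (r = 0.77), including an organic anion transporter of the barrier (Slc22a8), and for Flt1 they were Epas1 (r = 0.849), Rgs5 (r = 0.84), Atp1b2 (r = 0.807), where Epas1 is a hypoxia-inducible factor and Rgs5 a pericyte marker.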

How the data were processed

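Total RNA from hippocampus and cortex was sequenced in 64 libraries. STAR 2.5.2b and DESeq2 (version not given) are named in the submitters' processing notes. The genome build, annotation, read counter and strand setting are not given in the sources used here. The 4 deposited count tables hold unmodified counts per Ensembl rat gene, with 92 ERCC rows and 1 donor row. The authors' deposited comparison tables hold, per the file headers and values, log2 fold changes, p-values before and after adjustment, and a signal equal to each count over its library's size factor. They also gave the symbols of 15432 identifiers.

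Gene counts without spike-ins were fitted in edgeR 4.0.16 (R 4.3.3) with filterByExpr, TMM scaling and sex as a covariate. The test was the quasi-likelihood F-test, with Benjamini-Hochberg adjustment over all genes tested. An adjusted p is from this test unless another tool is named, the threshold is 0.05, and each SE is derived from the log2 change and its F statistic. Treatment was tested within region and genotype (16 libraries), genotype and its difference of effect within region, and region within genotype (32 libraries each), 12 comparisons in all, with 5 added after the data were seen. Levels are CPM with TMM factors over 64 libraries, and log2 CPM carries a prior count of 1. Library totals of 10836181 to 20397553 counts and the 8 rats per group limit precision. Same-numbered libraries of the 2 regions come from the same rat, per the labels. The median correlation of their deviations from group means was 0.168 over 32 rats, and a fit with the rat as a block is an alternative for region comparisons. DESeq2 1.42.0, total-count scaling, no filter, no sex term, wider fits and a marker covariate were also tried. Each library compared was left out in turn in the doxorubicin comparisons, between genotypes in PBS cortex and between regions in ApoE3 PBS rats. In the hippocampal genotype contrasts and the ApoE4 region contrasts, only the hippocampal library of rat 10 was left out. The other comparisons had no such fits.

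The genes, the marker lists and the tests were chosen with earlier results of these data known. Besides the 6 genes, the text names the 2 genes of smallest p in each list described and a set of fixed barrier and angiopoietin genes (Slc2a1, Mfsd2a, Ocln, Tjp1, Plvap, Vegfa, Angpt1, Angpt2, Tie1, Ptprb). A gene that this rule names in the cortical genotype comparison is not reported here. The fits were tested on simulated data. No count interval is given, since all 6 genes had at least 136 counts in every library.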

Additional observations from a re-analysis of the deposited data

Results flagged for a closer look

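Of 48 combinations of gene and group, 9 held a library whose gap to the nearest other library took over 0.526 of the range of its 8 libraries, Dixon's limit. Chance alone gives about 1 in 20 such groups. Of the 9, 5 belonged to the hippocampal library of rat 10, an ApoE4 male given doxorubicin. There Cdh5 stood at 59.0 CPM, Vwf at 185 CPM, Esam at 23.7 CPM, Tek at 64.9 CPM and Kdr at 31.5 CPM, each the highest of the group. The meningeal genes of this library summed to 2158 CPM and the choroid plexus genes to 3075 CPM, and the part of either in the values was not tested.

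The hippocampal library of rat 47, an ApoE3 male given doxorubicin, was highest in its group for Cdh5 at 20.1 CPM and for Vwf at 82.0 CPM. In its cortex these genes were at 17.0 and 49.2 CPM. The cortical library of rat 31, an ApoE4 female given doxorubicin, was highest for Cdh5 at 36.2 CPM and for Esam at 21.5 CPM, with a meningeal sum of 826 CPM, the highest of its group. Its hippocampal library held 18.1 CPM of Cdh5 and 11.8 CPM of Esam.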

How the results depend on the processing

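Of 1365 values recomputed under other settings, 1270 kept their direction and their side of the threshold (for counts, stayed within 1.5 times). This measure ignores a change in size for a value that passed in neither setting. Cdh5 in ApoE3 hippocampus, at -0.89 in the main fit and -0.16 with the meningeal covariate, was thus among those kept. The number of the 6 genes called by DESeq2 was 3 in ApoE3 hippocampus, 4 for the region difference of the effect in ApoE3, 1 for the region difference between genotypes and 1 for the sex difference in ApoE3 cortex, where edgeR called 0 each. Without the filter on low counts 2 were called for the region difference in ApoE3, against 0.158% of all genes. That setting also called 1 for the sex difference, Cdh5, in a fit whose share over all genes was not counted. The main fit of that difference called 2.57% of all genes. With the rat as replicate block, 1 was called for the region difference between genotypes, Tek, and the block changed 1 other call, that of Esam between regions in ApoE3 PBS rats. With the meningeal score as a covariate, 1 was called between genotypes in PBS cortex, where Esam turned to -0.017. In ApoE3 hippocampus Flt1, Vwf and Kdr turned to 0.043, 0.016 and 0.224 with it, and Kdr to 0.1 for the region difference of the effect in ApoE3. Leaving out 1 library at a time gave 3 to 5 genes called between genotypes in PBS cortex (3 without rat 7). Between regions in ApoE3 PBS rats it gave 2 to 4 (2 without rat 41 or 61). The full fits called 18.2% and 51.0% of all genes, and the shares in these smaller fits were not counted.

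No value that changed sign passed the threshold in either setting. Vwf in ApoE4 hippocampus was at 0.027 without the sex term and 0.012 in 1 fit of 32 libraries. With total-count scaling Flt1 was at 0.001 for the genotype difference of the hippocampal effect and -0.008 between genotypes in PBS hippocampus. Without the filter Flt1 was at -0.001 between regions in ApoE3 PBS rats. Leaving out 1 library gave -0.423 to 0.108 for Cdh5, -0.118 to 0.109 for Tek and -0.424 to 0.205 for Vwf in ApoE4 hippocampus, -0.053 to 0.003 for Flt1 in ApoE3 hippocampus and -0.050 to 0.046 for Flt1 between regions in ApoE3 PBS rats. Without the hippocampal library of rat 10, the region difference of the effect in ApoE4 was -0.293 for Cdh5, -0.032 for Tek and -0.235 for Vwf. The cause of these changes was not tested. The depth of 10836181 to 20397553 counts left each of the 6 genes detected, which had at least 136 counts in every library.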
